A study of Mus musculus with 13 samples.

Results

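The genes described here are the matrix metalloproteases (MMPs), the ADAMTS proteases and their tissue inhibitors (TIMPs): every gene of the deposited mouse count table whose symbol is Mmp, Adamts or Timp followed by a number and at most 1 letter. The rule, which used no measured value, took 46 of 23418 genes, of which 23 were Mmp, 19 Adamts and 4 Timp genes. The study looks for signals from the muscle niche to satellite cells, which are the stem cells that repair fibres. It sequenced bulk RNA of muscle FAPs in 4 libraries numbered 2 to 5, of lung FAPs in 5 libraries numbered 1 to 5, and of MEFs in 4 libraries numbered 1 to 4. A FAP, or fibro/adipogenic progenitor, is a mesenchymal cell found between muscle fibres, and a MEF is a fibroblast of the mouse embryo, although the labels hold only these abbreviations and the tissue. The sources used here do not give strain, genotype, age, treatment, the gate of a sort or the culture of MEFs. Nor do they call the replicates separate animals or cultures, so p-values measure the spread between these libraries, which may be technical.

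MMPs are zinc proteases that are secreted or held at the cell surface as inactive proenzymes and, once cleaved, degrade collagens, gelatin, elastin and proteoglycans. ADAMTS proteases are secreted enzymes with thrombospondin repeats that bind matrix. Some cleave versican and aggrecan, the large proteoglycans that bind hyaluronan, others remove the aminopropeptide of procollagen, and a further branch acts on fibrillin microfibrils. TIMPs bind the active site of MMPs, and Timp3, which stays in the matrix, also inhibits several ADAMTS and ADAM proteases. In muscle, FAPs and other interstitial fibroblasts are a main source of matrix and of the enzymes that remodel it.

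Muscle FAP libraries ranged over 41327292 to 44699463 counts, those of lung FAPs over 28636183 to 35464622, and MEF libraries over 33756915 to 41466585. Levels are in CPM, counts relative to the library's total over tested genes, with libraries scaled by TMM, which sets most genes as alike between groups. In that unit 3 counts over a whole group correspond to 0.0220 CPM for muscle FAPs, 0.0180 CPM for lung FAPs and 0.0166 CPM for MEFs. The summed level of the 3 FAP-defining markers Pdgfra, Ly6a and Cd34 was 3614 to 3915 CPM in muscle FAPs and 2591 to 4066 CPM in lung FAPs, against 113 to 159 CPM in MEFs, and Cd34 led the list. Lung FAP 3 stood apart with 8039 CPM of the 6 lung epithelium markers, led by Scgb1a1, against 16.7 to 104 CPM in the other lung FAP libraries, 0.0599 to 4.11 CPM in muscle FAPs and 1.17 to 3.59 CPM in MEFs. Lung FAP 2 stood apart with 573 CPM of the 6 endothelium markers, led over all libraries by Kdr, against 34.4 to 173 CPM in the other lung FAP libraries, 3.17 to 11.3 CPM in muscle FAPs and 160.4 to 193 CPM in MEFs. In lung FAP 2 Cdh5 led the list at 151 CPM. In MEFs Kdr alone held 155 to 186 CPM, and the other markers of the list reached 4.13 CPM at most.

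Other marker lists also moved with the groups. The 6 tenocyte markers, led over all libraries by Thbs4, summed to 1225 to 2199 CPM in muscle FAPs, against 97.6 to 186 CPM in lung FAPs and 45.2 to 52.7 CPM in MEFs. The 5 mesothelium markers, led over all libraries by Upk3b, summed to 1.15 to 27.0 CPM in muscle FAPs, against 361 to 856 CPM in lung FAPs and 102 to 135 CPM in MEFs. The 7 pericyte and smooth muscle markers, led over all libraries by Acta2 and in muscle FAPs by Cspg4 at 54.3 CPM, summed to 89.4 to 93.3 CPM in muscle FAPs, 279 to 1908 CPM in lung FAPs and 2233 to 3846 CPM in MEFs. The 7 chondrocyte and osteoblast markers, led over all libraries by Col2a1 and in muscle and lung FAPs by Sox9 at 30.8 and 7.6 CPM, summed to 30.3 to 49.2 CPM in muscle FAPs, 6.08 to 10.5 CPM in lung FAPs and 68.3 to 129.6 CPM in MEFs. Markers of satellite cells and myoblasts, led over all libraries by Myog, stayed under 1 CPM in sum in every FAP library, against 3.03 to 5.58 CPM in MEFs. Muscle fibre markers, led over all libraries by Acta1 and in muscle and lung FAPs by Tnnt3 at 5.31 and 7.58 CPM, summed to 8.16 to 12.5 CPM in muscle FAPs, 3.79 to 35.1 CPM in lung FAPs and 18.3 to 24.5 CPM in MEFs. The part of these lists in the results on proteases and inhibitors was not tested, and in bulk samples fewer cells of a type and less RNA per cell cannot be told apart.

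Of the 46 genes, 37 had enough counts to be tested, and the rest stayed under 1 CPM in every group. The filter can keep a gene for its counts in the group where it is high. Mmp8 and Timp4 entered the test through lung FAPs alone, and Mmp12 would not have entered without MEFs. Their p-values against that group, and their places in the counts of members, are therefore no independent support for a difference. In muscle FAPs against lung FAPs, 12 of the 37 were higher, which is 32.4%, beside 23.2% of all 15412 genes tested, and 13 were lower, which is 35.1%, beside 25% of all genes. Together these 25 genes compare with 48.2% of all genes that passed in either direction. The remaining 12 did not pass, which throughout means an edgeR quasi-likelihood p, adjusted over all genes tested by the Benjamini-Hochberg method, of 0.05 or more. Scaling by library size alone, without TMM, gave 8 higher and 18 lower members, beside 1730 higher and 7455 lower of all 15412 genes. It moved the median log2 fold change of all genes to -0.44 in place of -0.04. The value after ± is the SE of a log2 fold change or the SD of a level. The median log2 fold change of the 37 was -0.13, beside -0.04 over all genes, and the median of its absolute value was 1.28, beside 0.49 over all genes. By family, 9 of the 17 tested ADAMTS genes were higher and 4 lower in muscle FAPs, while 3 of the 4 TIMPs were lower and none was higher. Among the 16 tested Mmp genes, 3 were higher and 6 lower.

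**Figure D1:**
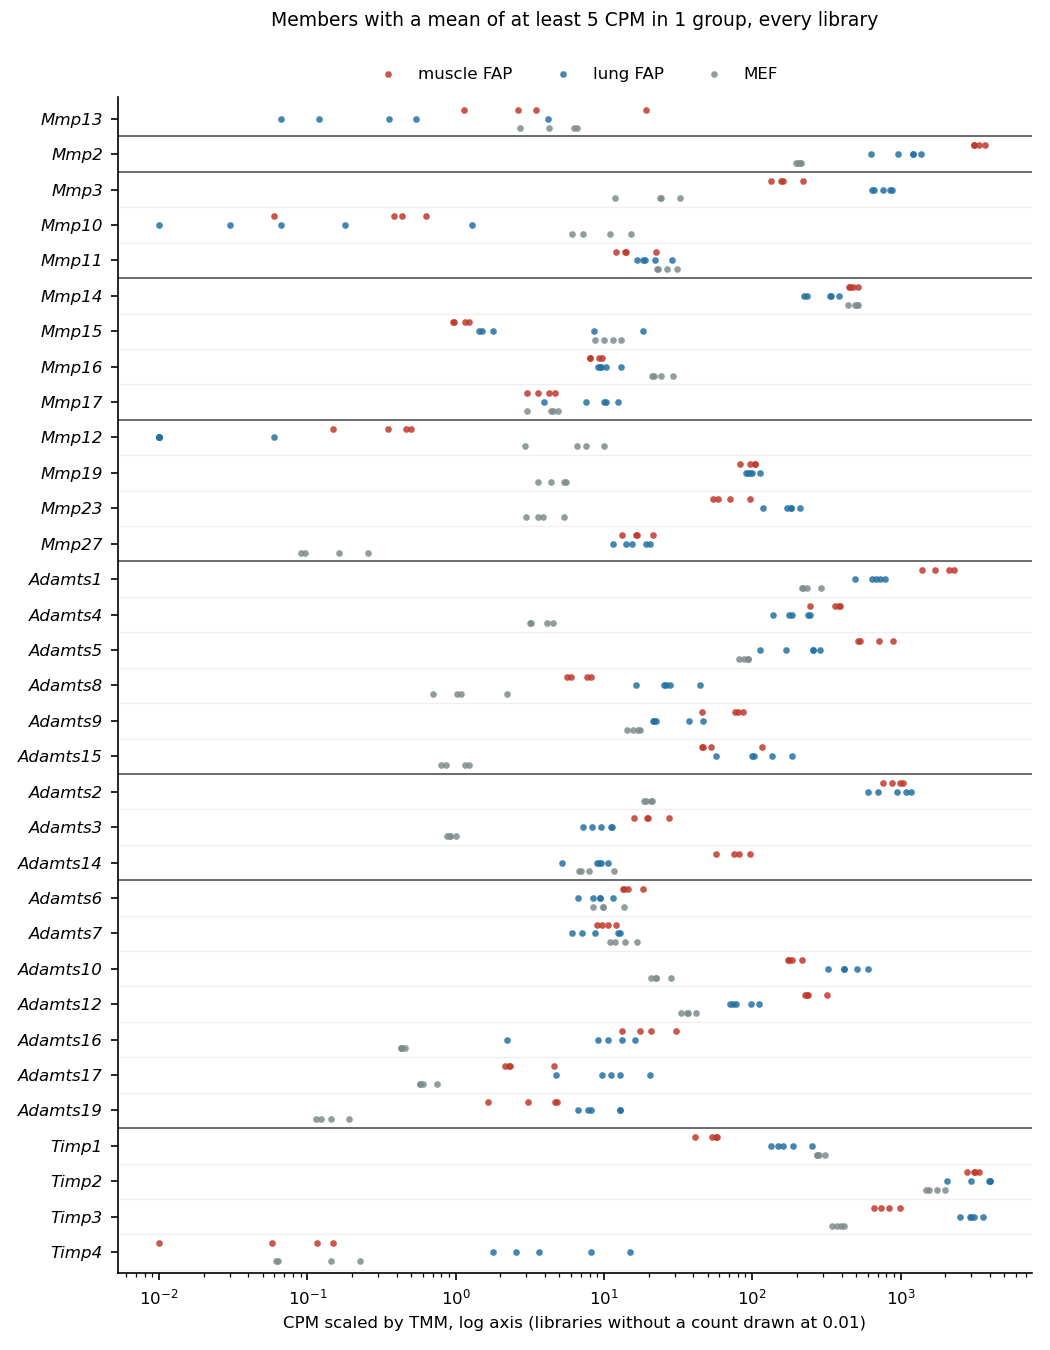
Level in CPM on a log axis of every member that averaged 5 CPM or more in 1 group, 1 point per library, with muscle FAP above lung FAP above MEF in each row and dark lines between roles. Mmp2, Adamts1 and Adamts14 had their highest levels in muscle FAPs, Timp3 and Mmp3 in lung FAPs, and Timp1 and Mmp12 in MEFs.

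**Figure D2:**
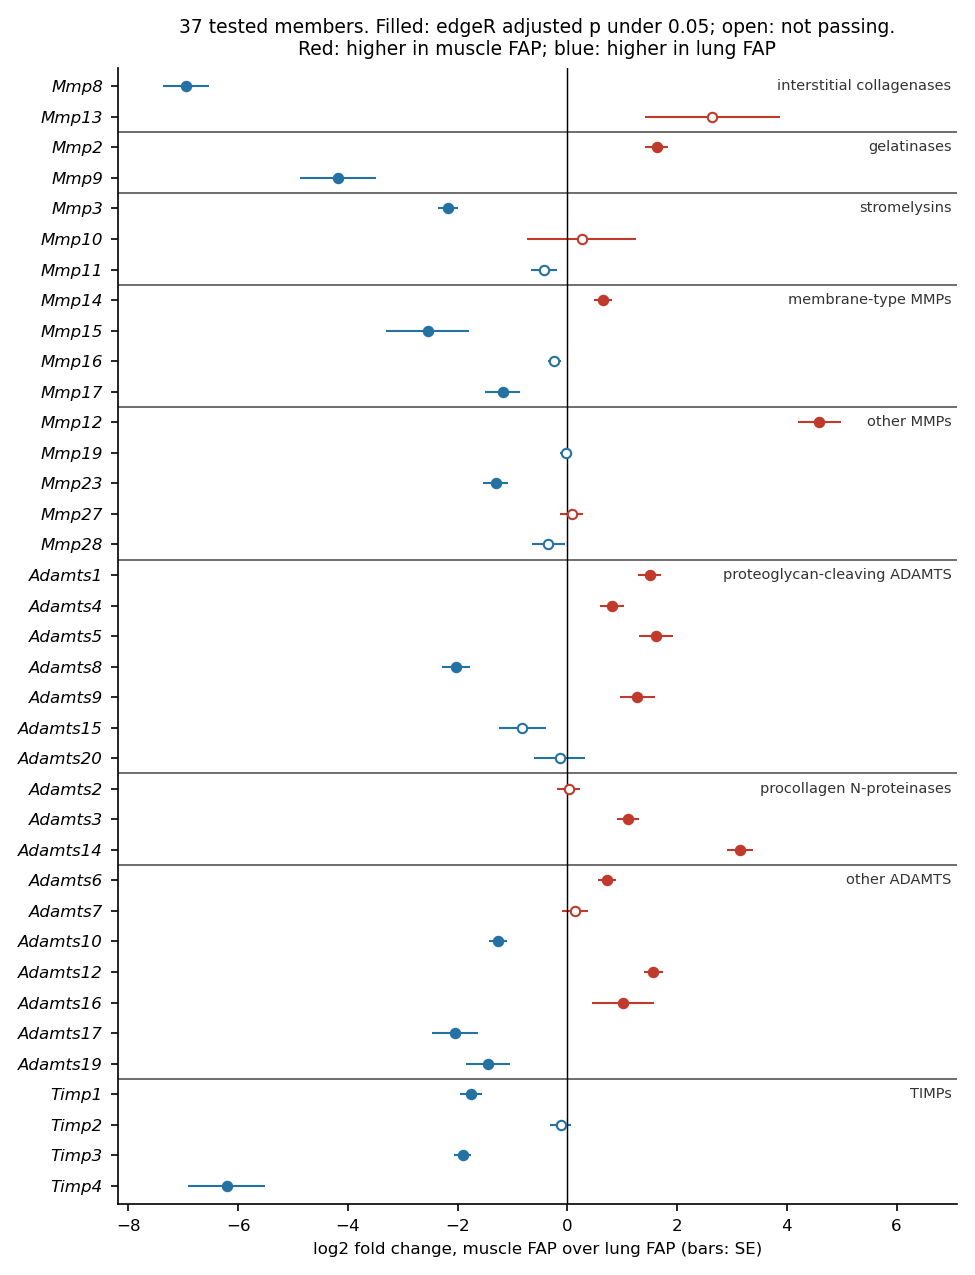
Log2 fold change of muscle FAP over lung FAP with its SE for the 37 tested members, grouped by role, with filled points for those that passed. Adamts14 stood at 3.15 and Mmp2 at 1.63, against -1.91 for Timp3 and -2.18 for Mmp3.

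Set per kilobase of exon, so that genes can be compared, Mmp2, a gelatinase, ranked first of the 46 genes in muscle FAPs, at 989.8 ± 79.5 CPM per kb (SD; n = 4 muscle FAP, 5 lung FAP and 4 MEF libraries here and below). Timp2 followed at 803 ± 61.6 CPM per kb and Adamts1 at 355 ± 77.6 CPM per kb, each beyond the SD of its neighbours. Timp3 at 99.3 ± 17.7 and Adamts2 at 98.4 ± 13.3 CPM per kb came next and lay within the SD of each other. In lung FAPs the order was Timp2 at 876 ± 224, Mmp3 at 422 ± 59.7, Timp3 at 373 ± 47.1 and Mmp2 at 320.4 ± 86.6 CPM per kb, where Mmp3 and Timp3, and likewise Timp3 and Mmp2, lay within 1 SD of each other. In MEFs Timp2 at 436 ± 59.7 and Timp1 at 320.1 ± 19.3 CPM per kb stood above Mmp14 at 82.4 ± 5.73 and Mmp2 at 61.1 ± 2.07 CPM per kb.

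The 4 TIMPs together made up 30.7% to 34.9% of the summed level per kilobase of all 46 genes in muscle FAP libraries, 47.7% to 55.8% in lung FAP libraries and 73.4% to 77.8% in MEF libraries. The 19 Adamts genes made up 19.8% to 24.9% in muscle FAP libraries, 12.1% to 17.6% in lung FAP libraries and 5.82% to 7.80% in MEF libraries. Neither share overlapped between groups. These sums are descriptions with no test, and a few abundant genes set them.

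**Figure D3:**
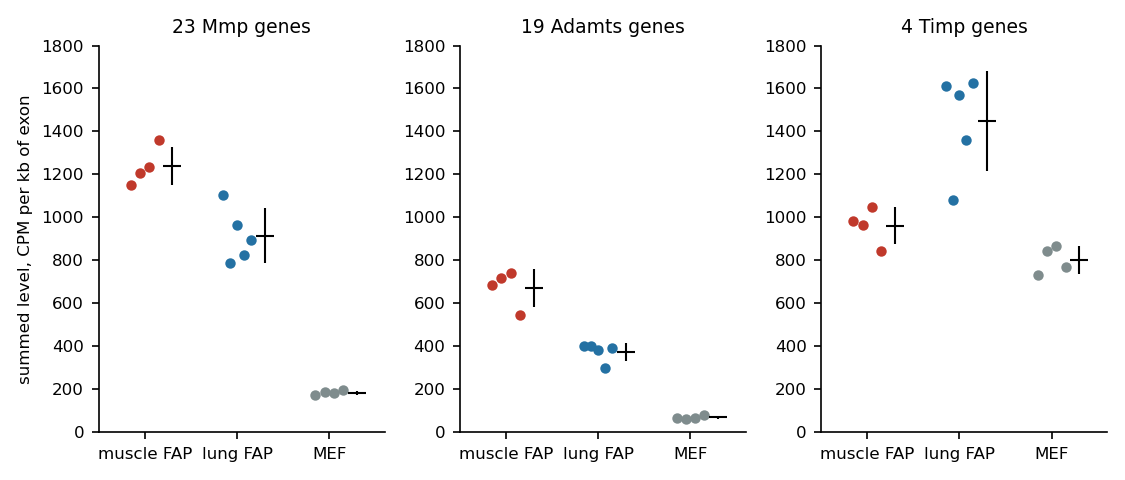
Summed level of the 23 Mmp, 19 Adamts and 4 Timp genes in CPM per kb of exon, 1 point per library, with the mean and SD beside the points. Adamts sums ran from 546 to 739.5 in muscle FAP libraries, above 299.7 to 400.3 in lung FAP libraries and 63.8 to 81.6 in MEF libraries, and Timp sums ran from 846 to 1049.5 in muscle FAP libraries, below 1081 to 1625 in lung FAP libraries, and from 730.5 to 866 in MEF libraries.

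The genes of many secreted MMPs lie side by side in mammals. The mouse cluster of 10 genes on chromosome 9 spans 427.1 kb, chr9:7272514-7699585 (GRCm38, which is mm10, GENCODE M21). Along the chromosome it holds Mmp13, Mmp12, Mmp1b, Mmp3, Mmp1a, Mmp10, Mmp8, Mmp27, Mmp20 and Mmp7. Neighbours in the cluster had different patterns. Mmp3 was highest in lung FAPs, and so was Mmp8 at a low level. Mmp27 had overlapping levels in both kinds of FAP and almost none in MEFs. Mmp10 and Mmp12 were highest in MEFs, and Mmp20 had no count in any library.

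The bases before the transcription start of the 6 cluster genes that were tested are shown so that they can be set beside those levels. Each run holds the 120 bases before a RefSeq start (GRCm38.p6, plus strand, 5′ to 3′), with matches to the AP-1 motif TGANTCA in capitals. This motif reads the same on both strands and is bound by Fos and Jun dimers.
Mmp13 (chr9:7272394-7272513): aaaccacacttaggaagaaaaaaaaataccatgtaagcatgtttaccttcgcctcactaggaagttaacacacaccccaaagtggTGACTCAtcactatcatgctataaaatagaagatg
Mmp12 (chr9:7347254-7347373): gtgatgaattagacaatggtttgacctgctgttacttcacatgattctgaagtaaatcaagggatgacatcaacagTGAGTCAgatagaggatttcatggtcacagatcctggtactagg
Mmp3 (chr9:7445702-7445821): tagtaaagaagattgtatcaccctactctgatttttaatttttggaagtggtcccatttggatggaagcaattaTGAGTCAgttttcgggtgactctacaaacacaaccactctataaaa
Mmp10 (chr9:7502222-7502341): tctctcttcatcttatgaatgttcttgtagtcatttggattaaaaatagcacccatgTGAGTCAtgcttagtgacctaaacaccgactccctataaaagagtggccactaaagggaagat
Mmp8 (chr9:7558309-7558428): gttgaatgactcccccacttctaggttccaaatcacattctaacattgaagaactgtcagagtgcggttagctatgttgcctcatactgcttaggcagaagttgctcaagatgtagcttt
Mmp27 (chr9:7571276-7571395): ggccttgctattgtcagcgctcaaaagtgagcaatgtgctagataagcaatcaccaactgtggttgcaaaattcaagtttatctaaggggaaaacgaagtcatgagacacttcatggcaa
For Mmp12 the run before the second of its RefSeq starts is shown, since the other start had no match. In windows from 250 bases before to 50 after the start, 7.81% of 32851 RefSeq promoters held the motif, and 8 of the 32 members with an entry did. The share counts every start, whereas a member counted when any of its starts had a match. Mmp12 and Mmp7 each had a further start without one. All 8 lay in the cluster, where Mmp8 and Mmp27 had no match, and none of the 22 other members with an entry had one. Members without an entry, among them Mmp2, Mmp9, Mmp19, Adamts4 and Adamts5, were not searched. Mmp3, at 642 to 878 CPM in lung FAPs, and Mmp20, at 0 in every library, both held a match, and Mmp27, at 11.5 to 21.4 CPM in FAP libraries, did not. The match of Mmp20 read TGAATCA, whereas those of the other cluster genes read TGAGTCA or TGACTCA.

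Mmp3, or stromelysin-1, cleaves proteoglycans and fibronectin and activates other proenzymes. It stood at 135, 221, 156 and 161 CPM in muscle FAP 2 to 5, against 878, 661, 764, 852 and 642 CPM in lung FAP 1 to 5. MEF 1 to 4 held 24.4, 23.8, 11.9 and 32.6 CPM. No library of 1 group reached the range of another, and muscle FAPs were 4.52-fold lower than lung FAPs, a log2 fold change of -2.18 ± 0.18 (edgeR adjusted p = 4.34e-06). Mmp27, a little studied member, had 16.5, 16.8, 21.4 and 13.2 CPM in muscle FAPs, against 19.2, 11.5, 14.1, 20.5 and 15.3 CPM in lung FAPs and 0.0969, 0.255, 0.0909 and 0.164 CPM in MEFs. Both kinds of FAP overlapped (log2 fold change 0.08 ± 0.21, edgeR adjusted p = 0.791), whereas every FAP library stood above every MEF library, by 108-fold on average in muscle FAPs and 103-fold in lung FAPs (edgeR adjusted p = 4.3e-11 and 3.97e-11).

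Mmp13, collagenase-3 and the main interstitial collagenase of rodents, had 3.49, 2.63, 19.4 and 1.14 CPM in muscle FAPs, against 0.544, 4.20, 0.358, 0.0665 and 0.12 CPM in lung FAPs and 6.28, 4.27, 2.73 and 6.60 CPM in MEFs. Muscle FAP 4 and lung FAP 2 were each far above the rest of their group, and the groups overlapped. The difference between muscle and lung FAPs did not pass, at a log2 fold change of 2.64 ± 1.24 (edgeR adjusted p = 0.0542), and without lung FAP 2 it was 4.59 with an edgeR adjusted p of 0.00105. Without muscle FAP 4 it was 1.18 with an edgeR adjusted p of 0.357, and without muscle FAP 5 it was 2.99 with an edgeR adjusted p of 0.0365. Without muscle FAP 4 the log2 fold change against MEFs was -1.06 in place of 0.42, and it passed in neither case (edgeR adjusted p = 0.377 and 0.729). Lung FAPs did not pass against MEFs at -2.22 ± 0.95 (edgeR adjusted p = 0.07), and without lung FAP 2 the log2 fold change was -4.18 with an edgeR adjusted p of 0.000883. Mmp8, neutrophil collagenase, had 1 count in muscle FAPs and 221 in lung FAPs, where it ran to 1.17, 0.799, 1.79, 0.465 and 2.35 CPM, a ratio of 180.5 with an exact 95% counting interval of 32.1 to 7163 (edgeR adjusted p = 3.91e-05). MEF libraries held 0.17, 0.212, 0.0227 and 0.184 CPM, below every lung FAP library. Mmp8 entered the test through its counts in lung FAPs alone. The other interstitial collagenase genes, Mmp1a and Mmp1b, are near copies whose reads the counting could split, and both stayed at or under 0.205 CPM in every library.

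Mmp10, stromelysin-2, had 0.437, 0.384, 0.633 and 0.0599 CPM in muscle FAPs, against 0, 1.28, 0.179, 0.0665 and 0.0301 CPM in lung FAPs and 10.9, 7.24, 6.09 and 15.3 CPM in MEFs. Every MEF library was above every FAP library, and muscle FAPs were 25.8-fold lower than MEFs (log2 fold change -4.69 ± 0.64, edgeR adjusted p = 0.000776). Muscle and lung FAPs overlapped at 0.26 ± 0.99 (edgeR adjusted p = 0.846), and without lung FAP 2 the log2 fold change was 2.43 with an edgeR adjusted p of 0.0156. Lung FAPs were lower than MEFs by a log2 fold change of -4.95 ± 0.86 (edgeR adjusted p = 0.000261), which was -7.13 without lung FAP 2. Mmp12, macrophage elastase, had 0.349, 0.503, 0.461 and 0.15 CPM in muscle FAPs, 2 counts in all in lung FAPs, both in lung FAP 3, and 9.96, 7.51, 2.93 and 6.60 CPM in MEFs. The ratio of muscle FAPs to lung FAPs was 30.6, with an exact 95% counting interval of 8.04 to 259.7 (edgeR adjusted p = 0.000198), and muscle FAPs were 18.3-fold lower than MEFs (edgeR adjusted p = 4.64e-06). Exons of Mmp12 and Mmp1b share 157 bases on opposite strands, and the sources used here do not say whether the counting used strand.

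Marker levels stood beside the macrophage and neutrophil enzymes. The 8 macrophage and monocyte markers in the table, led over all libraries by Lyz2, summed to 10.5 to 12.1 CPM in muscle FAPs, 34.9 to 659 CPM in lung FAPs, with lung FAP 3 highest, and 469, 322, 128 and 357 CPM in MEF 1 to 4, where Mmp12 ran to 9.96, 7.51, 2.93 and 6.60 CPM. In lung FAP 3 Lyz2 alone held 615 CPM of the sum, against 5.15 to 7.45 CPM in the other lung FAP libraries. Among lung FAP libraries Ptprc and Emr1 were highest in lung FAP 2, Csf1r in lung FAP 1 and Cd14 in lung FAP 3. Mmp9, Mmp10, Mmp12 and Mmp13 were each lowest in MEF 3, the MEF library with the lowest macrophage sum. So were other members, among them Mmp2, Mmp3, Mmp8, Mmp19 and Timp3, while Mmp11 and Mmp15 were highest there. Mmp9, Mmp10 and Mmp13 were highest in MEF 4, and not in MEF 1, which had the highest macrophage sum. All 6 tested markers of the macrophage list were lower in muscle FAPs than in MEFs, beside 37.3% of all genes. Marco, a marker of alveolar macrophages, was at 0 in every FAP library. The 5 neutrophil markers, led over all libraries by S100a9, summed to 2.90 to 6.26 CPM in muscle FAPs, 16.1 to 50.9 CPM in lung FAPs and 1.48 to 2.36 CPM in MEFs. Of the 4 tested neutrophil markers 3 were lower in muscle than in lung FAPs, beside 25% of all genes. Elane was at 0 in every lung FAP library. The part of these markers in the levels of Mmp8, Mmp9, Mmp10, Mmp12 and Mmp13 was not tested.

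**Figure D4:**
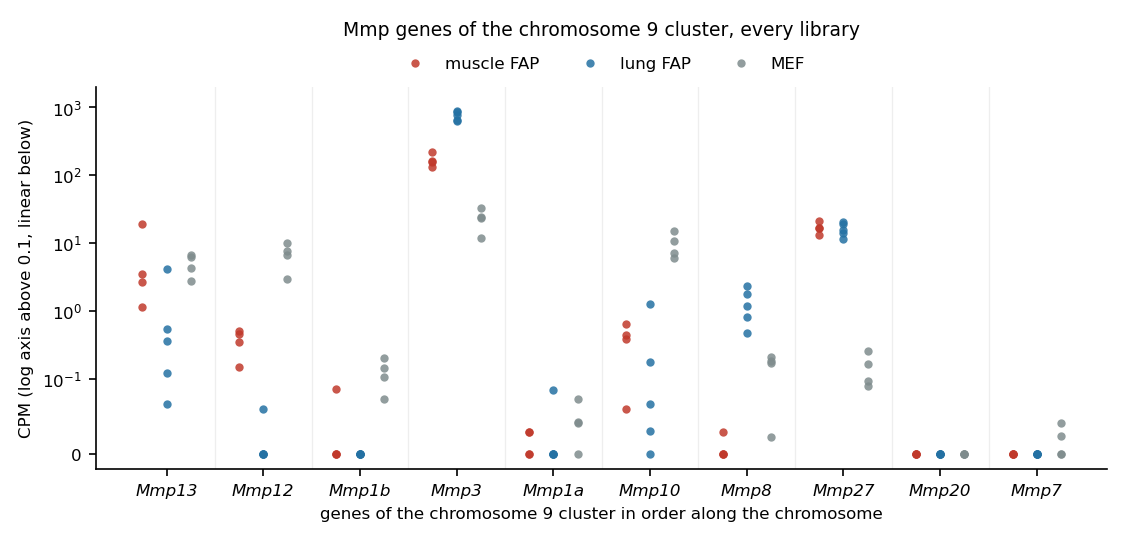
Level of the 10 Mmp genes of the chromosome 9 cluster in CPM, 1 point per library, in chromosome order, on an axis that is logarithmic above 0.1 and linear below. Mmp3 reached 642 to 878 CPM in lung FAPs, Mmp27 stood at 11.5 to 21.4 CPM in both kinds of FAP, and Mmp12 at 2.93 to 9.96 CPM in MEFs.

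Outside the cluster, Mmp2 (chr8:92827291-92853420), gelatinase A, which cleaves denatured collagen and basement membrane collagen, had 3137, 3135, 3370.2 and 3703 CPM in muscle FAPs, against 1383, 955, 1217, 636 and 1209 CPM in lung FAPs. MEFs held 203, 211, 198 and 213 CPM. The 3 groups did not overlap. Means were 3337 ± 268 CPM in muscle FAPs, 1080.0 ± 292 CPM in lung FAPs and 206 ± 6.97 CPM in MEFs, and muscle FAPs were 3.09-fold higher than lung FAPs, a log2 fold change of 1.63 ± 0.21 (edgeR adjusted p = 3.73e-06). Mmp9 (chr2:164940780-164955850), gelatinase B, an enzyme of neutrophils and macrophages, was at 0.116, 0.237, 0.0864 and 0.0599 CPM in muscle FAPs, against 2.23, 2.25, 4.95, 0.299 and 1.84 CPM in lung FAPs and 2.18, 2.02, 1.52 and 3.93 CPM in MEFs. Every muscle FAP library was below every other library. The log2 fold change of muscle FAPs over lung FAPs was -4.18 ± 0.69 (edgeR adjusted p = 0.000185), and -3.52 with an edgeR adjusted p of 0.000697 without lung FAP 2 and 3.

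Membrane-type MMPs sit in the plasma membrane or on a lipid anchor. Mmp14 (chr14:54431612-54445364), the chief of them, degrades fibrillar collagen at the cell surface and activates the Mmp2 proenzyme in a complex with Timp2. It had 481, 458, 447 and 515 CPM in muscle FAPs, against 387, 234, 338, 222 and 335 CPM in lung FAPs and 442, 495, 518 and 509 CPM in MEFs. Muscle FAPs were 1.57-fold higher than lung FAPs with no overlap (log2 fold change 0.65 ± 0.17, edgeR adjusted p = 0.0023), a call that scaling by library size alone ends, at 0.25 with an edgeR adjusted p of 0.111. Against MEFs muscle FAPs did not pass (log2 fold change -0.05 ± 0.07, edgeR adjusted p = 0.8), while scaling by library size alone gave -0.62 with an edgeR adjusted p of 0.000856.

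Mmp15, another transmembrane member, had 0.961, 1.15, 0.979 and 1.23 CPM in muscle FAPs, against 1.43, 8.51, 18.4, 1.5 and 1.78 CPM in lung FAPs and 10.1, 11.4, 13.1 and 8.69 CPM in MEFs. Lung FAP 2 and 3 were the high ones. Of the lung FAP libraries, lung FAP 2 had the highest sums of endothelium markers, at 573 CPM, and of pericyte and smooth muscle markers, at 1908 CPM. Lung FAP 3 had the highest sum of lung epithelium markers, at 8039 CPM. Lung FAP 4, second in the endothelium sum at 173 CPM, held 1.5 CPM of Mmp15. The part of these markers in the level of Mmp15 was not tested. The log2 fold change of muscle FAPs over lung FAPs was -2.55 ± 0.75 (edgeR adjusted p = 0.011), and without lung FAP 2 and 3 it was -0.54 with an edgeR adjusted p of 0.0632. Lung FAPs did not pass against MEFs (log2 fold change -0.77 ± 0.76, edgeR adjusted p = 0.29), and without lung FAP 2 and 3 they did, at -2.79 with an edgeR adjusted p of 7.49e-08. Mmp17, which carries a lipid anchor, had 3.58, 3.02, 4.69 and 4.28 CPM in muscle FAPs, against 9.94, 10.3, 7.57, 3.92 and 12.4 CPM in lung FAPs, which overlapped, and 4.36, 4.86, 4.5 and 3.03 CPM in MEFs, and it was lower in muscle than in lung FAPs (log2 fold change -1.18 ± 0.32, edgeR adjusted p = 0.00292). Mmp16 had 9.64, 8.07, 8.01 and 9.28 CPM in muscle FAPs, 13.1, 9.16, 9.62, 9.37 and 10.3 CPM in lung FAPs and 21.9, 24.3, 29.0 and 21 CPM in MEFs. The FAP groups overlapped (log2 fold change -0.24 ± 0.12, edgeR adjusted p = 0.178, or -0.64 with an edgeR adjusted p of 0.000819 under scaling by library size alone), and every FAP library was below every MEF library.

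Of the other MMPs, Mmp19 had 96.3, 104, 82.3 and 104 CPM in muscle FAPs and 113, 96.1, 91.3, 99.5 and 93.6 CPM in lung FAPs, which overlapped (log2 fold change -0.03 ± 0.10, edgeR adjusted p = 0.854, or -0.43 with an edgeR adjusted p of 0.00896 under scaling by library size alone), against 5.40, 5.52, 3.59 and 4.43 CPM in MEFs. Its exons share 1001 bases with 2 genes on the opposite strand, Gm47093 and Tmem198b. Mmp23, an MMP held in the membrane by its amino-terminal end, had 54.1, 70.4, 58.4 and 96.1 CPM in muscle FAPs, against 209, 118, 171, 183 and 183 CPM in lung FAPs and 3.61, 3.88, 5.41 and 2.99 CPM in MEFs, with no overlap. Muscle FAPs were 2.48-fold lower than lung FAPs (log2 fold change -1.31 ± 0.23, edgeR adjusted p = 0.000105). Mmp11, stromelysin-3, which is secreted in active form after furin cleavage, had 12.1, 13.9, 14.1 and 22.5 CPM in muscle FAPs, 18.3, 18.9, 28.6, 16.7 and 22.0 CPM in lung FAPs and 22.9, 26.6, 31.3 and 23 CPM in MEFs. Muscle and lung FAPs overlapped (log2 fold change -0.42 ± 0.24, edgeR adjusted p = 0.0866, or -0.82 with an edgeR adjusted p of 0.00213 under scaling by library size alone), and muscle FAPs were lower than MEFs (log2 fold change -0.73 ± 0.22, edgeR adjusted p = 0.00431). Without muscle FAP 5, the highest of its group, muscle FAPs were also lower than lung FAPs, at a log2 fold change of -0.65 with an edgeR adjusted p of 0.00834. Mmp28, epilysin, averaged 1.77 ± 0.399 CPM in muscle FAPs, 2.25 ± 0.806 CPM in lung FAPs and 4.89 ± 3.09 CPM in MEFs, and did not pass between the FAP groups (log2 fold change -0.35 ± 0.29, edgeR adjusted p = 0.495).

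Of the 7 ADAMTS genes whose products cleave hyaluronan-binding proteoglycans, 4 were higher in muscle than in lung FAPs, 1 was lower and 2 did not pass, with a median log2 fold change of 0.82. Over all genes tested, 23.2% were higher and 25% lower, with a median of -0.04. Adamts1 (chr16:85793827-85803113), a versican-cleaving protease, had 1713, 2119, 2307 and 1389.9 CPM in muscle FAPs, against 679.8, 791, 641, 493 and 730.1 CPM in lung FAPs and 232, 218, 219.6 and 292 CPM in MEFs. The 3 groups did not overlap, and means were 1882 ± 411 CPM in muscle FAPs, 667 ± 112 CPM in lung FAPs and 241 ± 35.2 CPM in MEFs. Muscle FAPs were 2.82-fold higher than lung FAPs, a log2 fold change of 1.5 ± 0.20 (edgeR adjusted p = 4.78e-06). Adamts5 (chr16:85856173-85901828), the main aggrecanase of mouse cartilage, lies 53.06 kb from Adamts1 on the same strand. It had 893, 537, 717 and 518 CPM in muscle FAPs, against 257, 113, 256, 169 and 287 CPM in lung FAPs and 88.1, 81.5, 93.1 and 94.1 CPM in MEFs. These groups did not overlap either, and the log2 fold change of muscle FAPs over lung FAPs was 1.62 ± 0.31 (edgeR adjusted p = 5.91e-05).

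Adamts4 (chr1:171250421-171260637), the other classical aggrecanase, had 387, 389, 359.5 and 245 CPM in muscle FAPs, against 177, 237, 137, 244 and 185 CPM in lung FAPs. MEFs held 4.14, 3.16, 3.2 and 4.51 CPM. Muscle FAP 5 lay just above lung FAP 4 and the groups did not overlap, with a log2 fold change of 0.82 ± 0.22 (edgeR adjusted p = 0.00154), and scaling by library size alone ends this call, at 0.40 with an edgeR adjusted p of 0.0877. Adamts9, a versican-cleaving protease that is also needed for cilia, had 86.9, 76.9, 80.7 and 45.9 CPM in muscle FAPs, against 37.4, 46.8, 21.4, 21.9 and 22.4 CPM in lung FAPs and 14.3, 15.6, 17.1 and 17.4 CPM in MEFs. Muscle FAP 5 fell just under lung FAP 2, and the log2 fold change of muscle FAPs over lung FAPs was 1.28 ± 0.31 (edgeR adjusted p = 0.000565).

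Adamts8 and Adamts15 are neighbours on chromosome 9, 20.11 kb apart on opposite strands. Adamts8, which is abundant in lung and acts on versican, had 6.03, 7.66, 5.64 and 8.14 CPM in muscle FAPs, against 26.1, 44.2, 25.4, 16.5 and 27.8 CPM in lung FAPs, with no overlap, and 1.09, 1.02, 0.704 and 2.21 CPM in MEFs. Muscle FAPs were 4.08-fold lower than lung FAPs, a log2 fold change of -2.03 ± 0.26 (edgeR adjusted p = 8.96e-05). Adamts15 had 117, 46.8, 52.7 and 45.7 CPM in muscle FAPs, against 184, 136, 99.7, 57.4 and 103 CPM in lung FAPs and 1.16, 1.23, 0.863 and 0.799 CPM in MEFs. Muscle FAP 2 stood above the other muscle FAP libraries, both kinds of FAP overlapped, and the difference did not pass (log2 fold change -0.83 ± 0.43, edgeR adjusted p = 0.0573). Without muscle FAP 2 it was -1.26 with an edgeR adjusted p of 0.00327, and without lung FAP 4, the lowest lung library, -0.99 with an edgeR adjusted p of 0.0167. In all, 7 of the 22 alternatives made it pass. Among them were the DESeq2 Wald test (DESeq2 adjusted p = 0.0194), upper-quartile scaling (edgeR adjusted p = 0.0398) and the 5 CPM filter (edgeR adjusted p = 0.0465). The replicate block was another (edgeR adjusted p = 0.032). Adamts20, which acts on versican in the embryo, averaged 1.45 ± 0.809 CPM in muscle FAPs, 1.60 ± 0.616 CPM in lung FAPs and 0.231 ± 0.0496 CPM in MEFs, and did not pass between the FAP groups (log2 fold change -0.14 ± 0.47, edgeR adjusted p = 0.809).

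The procollagen N-proteinases Adamts2, Adamts3 and Adamts14 remove the aminopropeptide that keeps procollagen from forming fibrils. Adamts2 (chr11:50602084-50807573), the main one in skin, had 872, 998, 767 and 1039.6 CPM in muscle FAPs and 1171, 704, 1096, 605 and 939.9 CPM in lung FAPs, which overlapped (log2 fold change 0.03 ± 0.21, edgeR adjusted p = 0.922), against 19.3, 20.7, 18.5 and 21 CPM in MEFs. Adamts14 (chr10:61197112-61273438) separated muscle FAPs from both other groups. It had 96.8, 74.8, 81.8 and 57.4 CPM in muscle FAPs, against 8.91, 10.7, 9.51, 5.25 and 9.24 CPM in lung FAPs and 7.00, 7.98, 6.77 and 11.7 CPM in MEFs. Means were 77.7 ± 16.4 CPM in muscle FAPs, 8.72 ± 2.05 CPM in lung FAPs and 8.35 ± 2.26 CPM in MEFs. Muscle FAPs were 8.90-fold higher than lung FAPs (log2 fold change 3.15 ± 0.24, edgeR adjusted p = 3.65e-08) and 9.29-fold higher than MEFs (edgeR adjusted p = 9.41e-09). Adamts3, which also acts in the processing of the lymphatic growth factor VEGF-C, had 19.6, 27.3, 19.7 and 16.0 CPM in muscle FAPs, against 7.28, 9.59, 8.34, 11.4 and 11.1 CPM in lung FAPs and 0.873, 0.998, 0.909 and 0.922 CPM in MEFs. The groups did not overlap and the log2 fold change of muscle FAPs over lung FAPs was 1.11 ± 0.20 (edgeR adjusted p = 7.73e-05).

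Of the 9 remaining ADAMTS genes, 7 were tested, 3 were higher in muscle than in lung FAPs, 3 were lower and 1 did not pass, with a median log2 fold change of 0.14, beside -0.04, 23.2% higher and 25% lower over all genes. Adamts12 had 318, 235, 239 and 228 CPM in muscle FAPs, against 110.4, 77.2, 74.1, 70.3 and 98.3 CPM in lung FAPs and 36.3, 32.9, 36.8 and 42.1 CPM in MEFs. Its groups did not overlap, with muscle FAP 2 the highest, and the log2 fold change of muscle FAPs over lung FAPs was 1.57 ± 0.17 (edgeR adjusted p = 6.76e-07). Its closest relative Adamts7, like Adamts12 a protease that binds the cartilage protein COMP, had 9.64, 12, 9.01 and 10.7 CPM in muscle FAPs, 12.8, 7.11, 8.64, 6.05 and 12.4 CPM in lung FAPs and 10.9, 13.8, 16.6 and 11.8 CPM in MEFs, which all overlapped, and did not pass between the FAP groups (log2 fold change 0.14 ± 0.23, edgeR adjusted p = 0.631).

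Adamts10, Adamts6, Adamts17 and Adamts19 belong to the branch linked to fibrillin microfibrils. Adamts10 had 217, 175, 178 and 187 CPM in muscle FAPs, against 327, 603, 508, 413 and 416 CPM in lung FAPs and 20.6, 22.3, 28.4 and 22.5 CPM in MEFs. Muscle FAPs were 2.40-fold lower than lung FAPs with no overlap (log2 fold change -1.26 ± 0.17, edgeR adjusted p = 1.46e-05). Its closest relative Adamts6 had 13.6, 18.2, 14.5 and 13.4 CPM in muscle FAPs, against 6.67, 9.33, 11.4, 9.47 and 8.43 CPM in lung FAPs and 9.82, 8.39, 9.88 and 13.6 CPM in MEFs, and it was higher in muscle than in lung FAPs (log2 fold change 0.72 ± 0.16, edgeR adjusted p = 0.0034), a call that library size alone ends at 0.30 with an edgeR adjusted p of 0.165. Adamts17 had 4.57, 2.16, 2.33 and 2.28 CPM in muscle FAPs, against 9.65, 20.4, 12.9, 4.75 and 11.2 CPM in lung FAPs and 0.606, 0.573, 0.75 and 0.574 CPM in MEFs. Adamts19 had 1.66, 4.67, 3.05 and 4.79 CPM in muscle FAPs, against 12.9, 8.19, 7.75, 6.68 and 12.7 CPM in lung FAPs and 0.145, 0.191, 0.114 and 0.123 CPM in MEFs. Both were lower in muscle than in lung FAPs with no overlap. The log2 fold change was -2.05 ± 0.42 (edgeR adjusted p = 0.000228) for Adamts17 and -1.44 ± 0.40 (edgeR adjusted p = 0.00124) for Adamts19. Adamts16, a protease that cleaves fibronectin, had 30.8, 13.2, 17.6 and 20.9 CPM in muscle FAPs, against 10.6, 2.23, 9.18, 13.3 and 16.1 CPM in lung FAPs and 0.436, 0.425, 0.454 and 0.43 CPM in MEFs. Muscle and lung FAPs overlapped at 1.01 ± 0.56 (edgeR adjusted p = 0.0481), and the call was lost under 14 of the 22 alternatives, with an edgeR adjusted p of 0.107 when both FAP groups were fitted alone.

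Timp3 (chr10:86300372-86349506), the TIMP that binds the matrix, had 836, 741, 996 and 660.2 CPM in muscle FAPs, against 2958, 2995, 3123, 2519 and 3588 CPM in lung FAPs and 373, 397, 344 and 414 CPM in MEFs. No groups overlapped, and muscle FAPs were 3.76-fold lower than lung FAPs, a log2 fold change of -1.91 ± 0.15 (edgeR adjusted p = 1.07e-07). Timp1 (chrX:20870166-20874735), a soluble inhibitor, had 57.1, 57.9, 53.8 and 41.1 CPM in muscle FAPs, against 189.5, 161, 149.7, 254 and 134 CPM in lung FAPs and 272, 309, 275 and 281 CPM in MEFs. It was 3.38-fold lower in muscle than in lung FAPs with no overlap, a log2 fold change of -1.76 ± 0.20 (edgeR adjusted p = 1.07e-06). Timp2 (chr11:118301069-118355740), which both inhibits MMPs and takes part in the activation of Mmp2, had 3190.1, 3148, 3376 and 2801 CPM in muscle FAPs and 4038, 2064, 3955, 2987 and 4023 CPM in lung FAPs, which overlapped (log2 fold change -0.13 ± 0.20, edgeR adjusted p = 0.605, or -0.52 with an edgeR adjusted p of 0.0118 under scaling by library size alone), against 1474, 1749, 2002 and 1567 CPM in MEFs. Timp4 (chr6:115241892-115252205), known from the heart, had 0.116, 0, 0.0576 and 0.15 CPM in muscle FAPs, against 2.55, 15, 3.67, 1.79 and 8.12 CPM in lung FAPs and 0.145, 0.0637, 0.227 and 0.0615 CPM in MEFs. Lung FAP 2 was the highest, and of the lung FAP libraries it also held the highest sums of endothelium markers, at 573 CPM, and of pericyte and smooth muscle markers, at 1908 CPM. In lung FAP 1 to 5 the pericyte and smooth muscle sums were 640, 1908, 489, 279 and 1161 CPM and the endothelium sums 36.5, 573, 34.4, 173 and 60.4 CPM, and lung FAP 4, with the lowest Timp4, was lowest in the pericyte sum and second in the endothelium sum. Their part in the level of Timp4 was not tested. The log2 fold change of muscle FAPs over lung FAPs was -6.21 ± 0.70 (edgeR adjusted p = 3.13e-05) with it and -5.57 with an edgeR adjusted p of 2.08e-05 without it.

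Timp1, Timp3 and Timp4 lie within synapsin genes on the opposite strand. Exons of Timp3 share 1733 bases with Syn3 and those of Timp4 share 90 bases with Syn2, while those of Timp1 share none with Syn1. Syn1 had 2.59, 1.86, 1.81 and 1.98 CPM in muscle FAPs, against 0.917, 0.428, 1.49, 1.06 and 1.75 CPM in lung FAPs and 4.39, 4.16, 3.91 and 4.22 CPM in MEFs. Syn2 had 1.72, 1.12, 1.53 and 2.45 CPM in muscle FAPs, against 7.30, 8.13, 6.59, 4.72 and 5.66 CPM in lung FAPs and 0.776, 0.87, 1.27 and 0.635 CPM in MEFs. Syn3 had 1.31, 0.858, 0.72 and 1.29 CPM in muscle FAPs, against 2.38, 1.03, 1.34, 1.06 and 1.41 CPM in lung FAPs and 0.873, 0.849, 0.727 and 0.676 CPM in MEFs. Syn2, the host of Timp4, was like Timp4 lower in muscle than in lung FAPs (log2 fold change -1.92 ± 0.26, edgeR adjusted p = 6.55e-05), while Syn1, the host of Timp1, was higher (log2 fold change 0.87 ± 0.35, edgeR adjusted p = 0.0397) and Syn3, the host of Timp3, did not pass (log2 fold change -0.47 ± 0.29, edgeR adjusted p = 0.299). Without strand, reads of Timp4 and Syn2 in the shared exon bases cannot be told apart. The same holds for Timp3 and Syn3, where the shared stretch is 1733 of the 8144 exon bases of Timp3. In all, 13 members share exon bases with a gene on the opposite strand and none with a gene on its own strand.

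Levels of enzyme and inhibitor were also set against each other within a library, per kilobase, as a description chosen after the values were seen and given with no test. Mmp2 over Timp2 was 1.14, 1.15, 1.15 and 1.53 in muscle FAPs, against 0.396, 0.535, 0.356, 0.246 and 0.347 in lung FAPs and 0.159, 0.139, 0.114 and 0.157 in MEFs. Timp3 over the sum of Adamts4 and Adamts5, the aggrecanases that it inhibits, was 0.629, 0.697, 0.866 and 0.819 in muscle FAPs. It was 5.99, 6.16, 7.34, 4.66 and 6.77 in lung FAPs and 5.07, 5.94, 4.55 and 5.27 in MEFs. Muscle FAPs stood apart from both other groups in each ratio. These are ratios of RNA levels, and no protein or activity was measured.

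Against MEFs, 23 of the 37 tested genes were higher in muscle FAPs, which is 62.2%, beside 36.1% of all genes, and 9 were lower, which is 24.3%, beside 37.3%. In lung FAPs 24 were higher than in MEFs, which is 64.9%, beside 37.8% of all genes, and 7 were lower, which is 18.9%, beside 36.6%. Over both directions, 73.5% of all genes passed for muscle FAPs against MEFs and 74.4% for lung FAPs against MEFs. The median log2 fold change was 2.17 for muscle FAPs over MEFs, beside -0.04 over all genes, and 1.47 for lung FAPs over MEFs, beside 0.02. These comparisons share the MEF libraries. All 7 proteoglycan-cleaving ADAMTS genes were higher in muscle FAPs than in MEFs, and all 7 were higher in lung FAPs, with median log2 fold changes of 2.90 and 2.77. Adamts4 was 91.8-fold higher in muscle FAPs and 52.1-fold higher in lung FAPs (edgeR adjusted p = 5.07e-12 and 1.11e-11). Adamts15 was 64.5-fold higher in muscle FAPs and 114-fold higher in lung FAPs (edgeR adjusted p = 4.65e-08 and 1.43e-08). Adamts2 was 46.2-fold higher in muscle FAPs and 45.4-fold higher in lung FAPs (edgeR adjusted p = 1.11e-11 and 9.55e-12).

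Mmp2 stood 16.2-fold above MEFs in muscle FAPs and 5.24-fold above MEFs in lung FAPs (edgeR adjusted p = 1.96e-10 and 2.16e-08). Mmp19 was 20.4-fold and 20.8-fold higher in those comparisons (edgeR adjusted p = 1.74e-12 and 1.32e-12). Mmp3 was 7.24-fold higher in muscle FAPs and 32.7-fold higher in lung FAPs (edgeR adjusted p = 9.16e-08 and 4.03e-10). Timp3 was 2.12-fold higher in muscle FAPs and 7.95-fold higher in lung FAPs than in MEFs (edgeR adjusted p = 9.45e-06 and 1.55e-10). Timp1 ran the other way, 5.41-fold lower in muscle FAPs and 1.60-fold lower in lung FAPs than in MEFs (edgeR adjusted p = 8.6e-09 and 0.00132). Of 4 tested membrane-type MMPs, 2 were lower and none was higher in muscle FAPs than in MEFs. Over all genes, 37.3% were lower and 36.1% higher in that comparison. Mmp16 was 2.75-fold lower (edgeR adjusted p = 3.47e-07) and Mmp15 9.98-fold lower (edgeR adjusted p = 0.00145). In lung FAPs Mmp14 was 1.62-fold lower than in MEFs (edgeR adjusted p = 0.00062) and Mmp17 2.11-fold higher (edgeR adjusted p = 0.0027). Timp2 stood 1.84-fold above MEFs in muscle FAPs (at an edgeR adjusted p = 0.000837), which scaling by library size alone ends at 0.31 on the log2 scale with an edgeR adjusted p of 0.108. In lung FAPs Timp2 was 2.01-fold and Timp4 49.4-fold higher than in MEFs (edgeR adjusted p = 0.000185 and 1.25e-05). Adamts7 was lower in lung FAPs than in MEFs (log2 fold change -0.50 ± 0.25, edgeR adjusted p = 0.0459), a call that 8 of the 22 alternatives end, among them leaving out lung FAP 2, 3 or 4 or MEF 2 or 3, with edgeR adjusted p-values of 0.0731 to 0.143.

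The 9 genes that were not tested stayed under 1 CPM in every library. Mmp20, enamelysin of developing teeth, had no count, and Mmp7, matrilysin of epithelia, had none in FAPs and 3 in MEFs. Mmp21 had 6 counts over the muscle FAP libraries, 5 over the lung FAP libraries and 0 over the MEF libraries. Adamts13, which cleaves von Willebrand factor, had 1 count in muscle FAPs, 45 counts in lung FAPs and 1 in MEFs, with its highest level of 0.771 CPM in lung FAP 2. Adamts18 had 3 counts in muscle FAPs, 6 counts in lung FAPs and 42 in MEFs. The membrane-type genes Mmp24 and Mmp25 did not exceed 0.745 and 0.856 CPM in any library.

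Genes around these families were counted by pathway, and each count and median between muscle and lung FAPs is to be set beside 23.2% higher, 25% lower and a median log2 fold change of -0.04 over all genes. Of 7 ADAMTS-like proteins, which resemble ADAMTS enzymes without the protease domain, 3 were higher and 2 lower in muscle than in lung FAPs, with a median log2 fold change of 0.65. Thsd4, which binds fibrillin, averaged 2.57 ± 1.91 CPM in muscle FAPs and 33.4 ± 12.3 CPM in lung FAPs (log2 fold change -3.70 ± 0.60, edgeR adjusted p = 2.02e-05), and Adamtsl1 averaged 349 ± 26.9 CPM in muscle FAPs and 137 ± 47.5 CPM in lung FAPs (log2 fold change 1.36 ± 0.25, edgeR adjusted p = 0.000159). Of 11 membrane ADAMs, shedding enzymes of the cell surface, 4 were higher and 3 lower, with a median of 0.16. Adam8, a leukocyte member, averaged 1.03 ± 0.362 CPM in muscle FAPs and 6.52 ± 3.70 CPM in lung FAPs (log2 fold change -2.65 ± 0.44, edgeR adjusted p = 0.000248). Adam12 averaged 18.5 ± 5.92 CPM in muscle FAPs and 8.29 ± 2.98 CPM in lung FAPs (log2 fold change 1.16 ± 0.34, edgeR adjusted p = 0.00409).

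The plasminogen system makes plasmin, which activates several proenzymes of MMPs. Of its 8 tested genes 3 were higher and 1 lower in muscle than in lung FAPs, with a median of 0.41. Plau, the urokinase that activates plasminogen, had 2337, 2171, 3040.2 and 1544 CPM in muscle FAPs, against 92.1, 53.5, 97.8, 171 and 119 CPM in lung FAPs and 51.3, 54.9, 68.6 and 47.4 CPM in MEFs. Muscle FAPs were 21.3-fold above lung FAPs, a log2 fold change of 4.42 ± 0.34 (edgeR adjusted p = 3.65e-08), and every muscle FAP library was above every library of the other groups. Serpine2, an inhibitor of urokinase and thrombin, averaged 536 ± 126 CPM in muscle FAPs, 103 ± 18.8 CPM in lung FAPs and 282 ± 13.1 CPM in MEFs (log2 fold change 2.38 ± 0.22, edgeR adjusted p = 3.34e-08 for muscle FAPs over lung FAPs). Plasminogen itself, Plg, had 2 counts in muscle FAPs and 0 in lung FAPs.

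Of 11 activators, receptors and other inhibitors of MMPs, 5 were higher and 1 lower in muscle than in lung FAPs, with a median of 0.48. Pcsk6, a proprotein convertase, averaged 1146 ± 234 CPM in muscle FAPs and 379.9 ± 144 CPM in lung FAPs (log2 fold change 1.59 ± 0.37, edgeR adjusted p = 0.000851). Spock3, a testican that inhibits membrane-type MMP activation, averaged 0.48 ± 0.378 CPM in muscle FAPs and 8.45 ± 3.98 CPM in lung FAPs (log2 fold change -4.12 ± 1.0, edgeR adjusted p = 0.000469). Of 5 procollagen C-proteinases and enhancers, 3 were higher and 1 lower, with a median of 0.76. Pcolce2, an enhancer, averaged 269.7 ± 19.7 CPM in muscle FAPs and 1006 ± 143 CPM in lung FAPs (log2 fold change -1.90 ± 0.10, edgeR adjusted p = 1.35e-07), and Bmp1, a C-proteinase, averaged 973 ± 102 CPM in muscle FAPs and 489 ± 112 CPM in lung FAPs (log2 fold change 0.99 ± 0.19, edgeR adjusted p = 0.000167).

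Of 7 cathepsins and their inhibitor cystatin C, 3 were higher and 1 lower in muscle than in lung FAPs, with a median of 0.13. Ctsk, a collagen-degrading cathepsin, averaged 403 ± 32.2 CPM in muscle FAPs and 199 ± 31.0 CPM in lung FAPs (log2 fold change 1.02 ± 0.12, edgeR adjusted p = 4.93e-06), and Ctsb averaged 1461 ± 68.5 CPM in muscle FAPs and 1084 ± 178 CPM in lung FAPs (log2 fold change 0.43 ± 0.11, edgeR adjusted p = 0.0207). Of 9 hyalectans and their partners, the substrates of the proteoglycan-cleaving ADAMTS enzymes and the proteins that make or bind hyaluronan, 2 were higher and none lower, with a median of 0.49. Vcan, versican, averaged 574 ± 126 CPM in muscle FAPs and 306 ± 48.6 CPM in lung FAPs (log2 fold change 0.91 ± 0.18, edgeR adjusted p = 0.000292), and Acan, aggrecan, stayed under 5 CPM in every library. Of 5 secreted and surface serine proteases of fibroblasts, 2 were higher and none lower, with a median of 0.32. Fap, the fibroblast activation protein, averaged 274 ± 35.9 CPM in muscle FAPs and 42.9 ± 15.9 CPM in lung FAPs (log2 fold change 2.68 ± 0.30, edgeR adjusted p = 4.68e-05), and Htra3 averaged 1156 ± 176 CPM in muscle FAPs and 645 ± 213 CPM in lung FAPs (log2 fold change 0.84 ± 0.28, edgeR adjusted p = 0.00542).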

How the data were processed

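Bulk RNA-seq of 13 mouse libraries was analysed: 4 of muscle FAPs, 5 of lung FAPs and 4 of MEFs, grouped by their labels. The authors deposited raw counts per gene. Bowtie2 2.1.0.0, HTSeq, edgeR and the build mm10 are named in the submitters' processing notes, while the sources used here do not give the annotation and strand setting of the counting. RNA was isolated with Trizol and RNeasy Micro and kept at an RNA integrity number of at least 7, per the labels' protocols. Libraries held 28636183 to 44699463 counts, and intervals and floors cover counting error only.

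From the counts, edgeR 4.0.16 (R 4.3.3) fitted all 13 libraries by group after filterByExpr and TMM scaling, which kept 15412 of 23418 genes, and tested each pair of groups with the robust quasi-likelihood F test, adjusted by Benjamini-Hochberg over all genes tested. A gene passed at an adjusted p under 0.05, with no fold minimum. CPM were computed from the counts in tested genes with TMM factors, and the SE of a log2 fold change comes from log2 CPM (prior count 2). For groups with 1 to 3 counts, the ratio carries an exact 95% counting interval. The script was tested on simulated data. Lengths and loci come from GENCODE M21 (GRCm38), where all 46 members matched, and promoters from RefSeq GRCm38.p6, where 32 matched.

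Members that averaged 5 CPM or more in a group are given in every library, those at 1 to 5 CPM by means, and from each pathway list the 2 passing genes with the largest change among those that averaged 5 CPM or more in muscle or lung FAPs. The members and lists were chosen with earlier results of these data known. DESeq2 1.42.0 served as an alternative test, and 21 further settings are described at the end. No columns of other samples were present.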

Additional observations from a re-analysis of the deposited data

Results flagged for a closer look

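Of 111 combinations of a tested gene and a group that were checked for a lone value, 8 had 1 library far from the rest of its group, where chance flags about 1 in 20. That rate does not apply to Mmp8 in muscle FAPs and Mmp12 in lung FAPs. There all other libraries of the group were at 0, so any count was flagged. Muscle FAP 2 accounted for 3 of the 8. Adamts12 stood at 318 CPM in that library, against 228 to 239 CPM in the other muscle FAP libraries, Adamts15 at 117 CPM, against 45.7 to 52.7 CPM, and Adamts17 at 4.57 CPM, against 2.16 to 2.33 CPM. Muscle FAP 4 stood apart for Mmp13 at 19.4 CPM, against 1.14 to 3.49 CPM in the others, and for Mmp8 at 0.0288 CPM, which is the only count of that gene in muscle FAPs. Lung FAP 2 stood apart for Mmp13 at 4.20 CPM, against 0.0665 to 0.544 CPM in the other lung FAP libraries, and for Mmp10 at 1.28 CPM, against 0 to 0.179 CPM. Lung FAP 3 held the only 2 counts of Mmp12 in lung FAPs, at 0.0596 CPM. Lung FAP 2 also held the highest sum of endothelium markers and lung FAP 3 that of macrophage markers, where Lyz2 made up 615 of 659 CPM. Ptprc and Emr1 of the macrophage list were higher in lung FAP 2 than in lung FAP 3. The part of either list in these values was not tested.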

How the results depend on the processing

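Over 22 alternatives to the settings above, 747 of the muscle FAP over lung FAP values, 791 of the muscle FAP over MEF values and 781 of the lung FAP over MEF values kept their direction and their side of the threshold. Of the others, 22, 4 and 7 changed sign, 18, 5 and 10 no longer passed, and 19, 4 and 10 newly passed. A filter of 5 CPM in 4 libraries, which tests 11348 genes and 31 members, left 5 members lower in muscle FAPs than in MEFs and 4 lower in lung FAPs than in MEFs, in place of 9 and 7, beside 4499 and 4434 of all genes. Scaling by library size alone moved the median log2 fold change of all genes to -0.44 for muscle FAPs over lung FAPs, -0.62 for muscle FAPs over MEFs and -0.15 for lung FAPs over MEFs, in place of -0.04, -0.04 and 0.02, and it called 1730 genes higher and 7455 lower in muscle FAPs than in lung FAPs, in place of 3574 and 3850. Under that scaling the log2 fold change turned to -0.37 for Adamts2, -0.26 for Adamts7, -0.22 for Mmp10 and -0.33 for Mmp27 between muscle and lung FAPs, to -0.062 for Adamts6 and -0.18 for Mmp13 between muscle FAPs and MEFs, and to -0.10 for Adamts14 between lung FAPs and MEFs. Of these values only that of Adamts6 had passed. It also made Timp2, Mmp11, Mmp16, Mmp19 and Adamts15 (-1.22, edgeR adjusted p = 0.00805) pass as lower in muscle than in lung FAPs, and Mmp14, Mmp17 (-0.68, edgeR adjusted p = 0.0478) and Adamts7 (-0.94, edgeR adjusted p = 0.000895) as lower in muscle FAPs than in MEFs. Adamts2 was -0.041 under upper-quartile scaling and 0 under the 5 CPM filter, where Mmp14 was 0.007 between muscle FAPs and MEFs. Without lung FAP 2 and 3 the values were -0.019 for Adamts7 and -0.12 for Mmp27 between muscle and lung FAPs and -0.10 for Adamts14 between lung FAPs and MEFs. Leaving out 1 library at a time, values of genes that had not passed changed sign within ranges of -0.077 to 0.135 for Adamts2, -0.53 to 0.10 for Adamts20, -0.11 to 2.43 for Mmp10, -0.074 to 0.035 for Mmp19 and -0.057 to 0.191 for Mmp27 between muscle and lung FAPs, -1.06 to 0.76 for Mmp13 between muscle FAPs and MEFs, and -0.051 to 0.257 for Adamts14 and -0.53 to 0.27 for Mmp9 between lung FAPs and MEFs. The cause was not tested. Deviations of libraries with the same replicate number correlated at -0.048 to 0.061, and not every library correlated best with its own number. Muscle FAP 4 and lung FAP 4, muscle FAP 3 and MEF 3, and muscle FAP 4 and MEF 4 did so in both directions. Such low correlations cannot decide whether the numbers mark a shared batch, which the labels do not say. With the replicate number as a block, 36, 35 and 37 members were tested: 10 were higher and 14 lower in muscle FAPs than in lung FAPs, 23 and 9 in muscle FAPs than in MEFs, and 24 and 8 in lung FAPs than in MEFs, beside 3019 and 3268 of 14460, 5516 and 5649 of 14740, and 5074 and 5264 of 14933 genes. Genes near 0 in a group are limited by depth, and their fold changes rest on single counts.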
